A study of Mus musculus with 27 samples.

Results

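The genes described here encode the receptors for serotonin, dopamine, noradrenaline, adrenaline and acetylcholine. Members were taken by gene symbol, with no measured value in the rule, as every feature of the deposited gene table named as a serotonin receptor (Htr), dopamine receptor (Drd), adrenergic receptor (Adra, Adrb), muscarinic receptor (Chrm) or nicotinic receptor subunit (Chrn). The rule found 49 genes among 51826 features: 14 serotonin, 5 dopamine, 9 adrenergic and 5 muscarinic receptor genes and 16 nicotinic subunit genes. RNA came from whole hippocampi of ICR mice, an outbred stock, and 15 mRNA libraries were used. The mice had either had their ovaries removed (ovariectomy, OVX) or a sham operation, and received saline or Xmo, the labels' short name for xanthohumol, a flavonoid found in hop cones. The groups were sham saline (3 libraries), sham Xmo (4), OVX saline (4) and OVX Xmo (4), so a given operation was shared by a saline and an Xmo group. Age and dose were not in the labels used here, no agent other than saline or Xmo was named, and the labels do not say whether a library came from 1 mouse or from pooled mice. All p-values therefore measure the spread between these libraries.

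Most of these receptors are G protein-coupled. Gs-coupled receptors raise cyclic AMP, Gi-coupled receptors lower it, and Gq-coupled receptors activate phospholipase C, whereas nicotinic subunits and the 5-HT3 serotonin subunits form ion channels that open when the transmitter binds. In the hippocampus the transmitters arrive mainly in axons from the raphe nuclei, the locus coeruleus, the midbrain and the septum, so the receptors are made by local cells while most genes for making monoamines and acetylcholine are expressed elsewhere.

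Library totals ran from 20848661 to 39140593 counts, and the receptor genes together took 0.0325% to 0.0623% of them. Transcripts of the mitochondrial genome took 20.2% to 35.4% of counts in the sham saline libraries and 12.4% to 20.6% in the other 12, and sham saline 2 had both the highest mitochondrial share and the lowest receptor share. Hippocampal identity was supported by all 10 marker genes of the hippocampal formation, which were detected in every library with a summed level of 952 to 1480 CPM (counts per 1e+06, scaled for library size and composition). The CPM scale is used below for comparisons of 1 gene between libraries, and 3 counts, the lowest level taken as detection, corresponded to 0.073 to 0.144 CPM. Markers of neighbouring tissue varied far more: the summed level of 12 choroid plexus genes ran from 84.5 to 8581 CPM and that of 12 thalamus and habenula genes from 158 to 1103 CPM. In library sham Xmo 2, some genes of the habenula and striatum stood apart, with the habenula gene Gpr151 at 18.3 CPM against at most 1.39 CPM elsewhere. Results that rest on that library are pointed out below, some of them with the value without it.

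Of the 49 genes, 39 had enough counts to be tested. The untested genes were the dopamine receptors Drd3 and Drd4, the serotonin receptors Htr1d, Htr2b and Htr3b, and the nicotinic subunits Chrna9, Chrna10, Chrnd, Chrne and Chrng. Chrnd and Chrng, subunits of the muscle receptor, had 0 counts in every library. Over the 15 libraries Chrna9 and Chrna10, subunits of the receptor of cochlear hair cells, had 4 counts each, and Htr3b had 8 counts. The other untested genes had from 40 counts (Chrne) to 60 counts (Drd4) in all, and the 50 counts of Htr2b lie wholly within the span of Psmd1 on the opposite strand, whose reads cannot be told apart from its own where strand was not used.

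Muscarinic receptors made up the largest part of the receptor transcripts per unit length, in TPM (transcripts per 1e+06). They took 39.1% ± 3.49 of the summed receptor TPM (SD, n = 15 libraries), against 20.6% ± 1.72 for serotonin receptors, 20.2% ± 2.49 for nicotinic subunits, 15.9% ± 1.61 for adrenergic receptors and 4.15% ± 0.746 for dopamine receptors. The highest level was that of Chrm1, the Gq-coupled M1 receptor of pyramidal neurons, at 61.5 ± 15.2 TPM, followed by Chrm3, the Gq-coupled M3 receptor, at 33.5 ± 9.39 TPM. Each of these 2 genes lay above the next one in all 15 libraries. The subunit Chrna7, which forms homomeric nicotinic channels, had 20.3 ± 5.42 TPM and the Gq-coupled adrenergic receptor Adra1d had 19.9 ± 6.54 TPM. Those values did not differ beyond their spread, since Chrna7 was the higher of the pair in 8 of 15 libraries. Next came Chrnb2 (14.6 ± 3.81 TPM) and Chrna4 (11.3 ± 4.41 TPM), which together form the commonest high-affinity nicotinic receptor of the brain, with Chrnb2 higher in 12 of 15 libraries.

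Below them the order was less firm. Htr2c, a Gq-coupled serotonin receptor, had 10.9 ± 4.44 TPM and lay below Chrna4 in 7 of 15 libraries. Htr1a, the Gi-coupled 5-HT1A receptor, followed with 8.38 ± 2.0 TPM, and Chrm4, the Gi-coupled M4 receptor, with 8.08 ± 2.52 TPM. Adra2c, a Gi-coupled alpha 2 receptor, had 6.72 ± 1.9 TPM, Adrb1, the Gs-coupled beta 1 receptor, had 6.56 ± 1.7 TPM, and Drd5, the D1-like receptor that couples to Gs, had 6.51 ± 1.53 TPM. These 3 means differed by less than their SD. Adra2a was at rank 21 (3.22 ± 0.841 TPM) and Htr7 at rank 23 (2.76 ± 1.32 TPM), while the other dopamine receptors Drd1 and Drd2 had 2.58 ± 0.904 and 1.98 ± 1.08 TPM. At the low end of the tested genes were Chrna6 (0.487 ± 0.489 TPM), Adra2b (0.389 ± 0.463 TPM) and Chrnb4 (0.283 ± 0.635 TPM), each with 1 or more libraries at 0. For 6 tested genes a large part of the span is shared with a feature on the opposite strand. Of these, Chrnb2 shares 39.3% with Adar (48449 counts over the 15 libraries), Adrb3 46.9%, Htr1b 41.1% and Drd5 48.6% with features of 808, 690 and 558 counts, and their levels are less certain. The partners of Htr3a (57% of the span) and Chrnb4 (41.9%) had 8 and 0 counts. The order of the 39 tested genes was the same when mitochondrial genes were left out of the TPM sum.

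**Figure D1:**
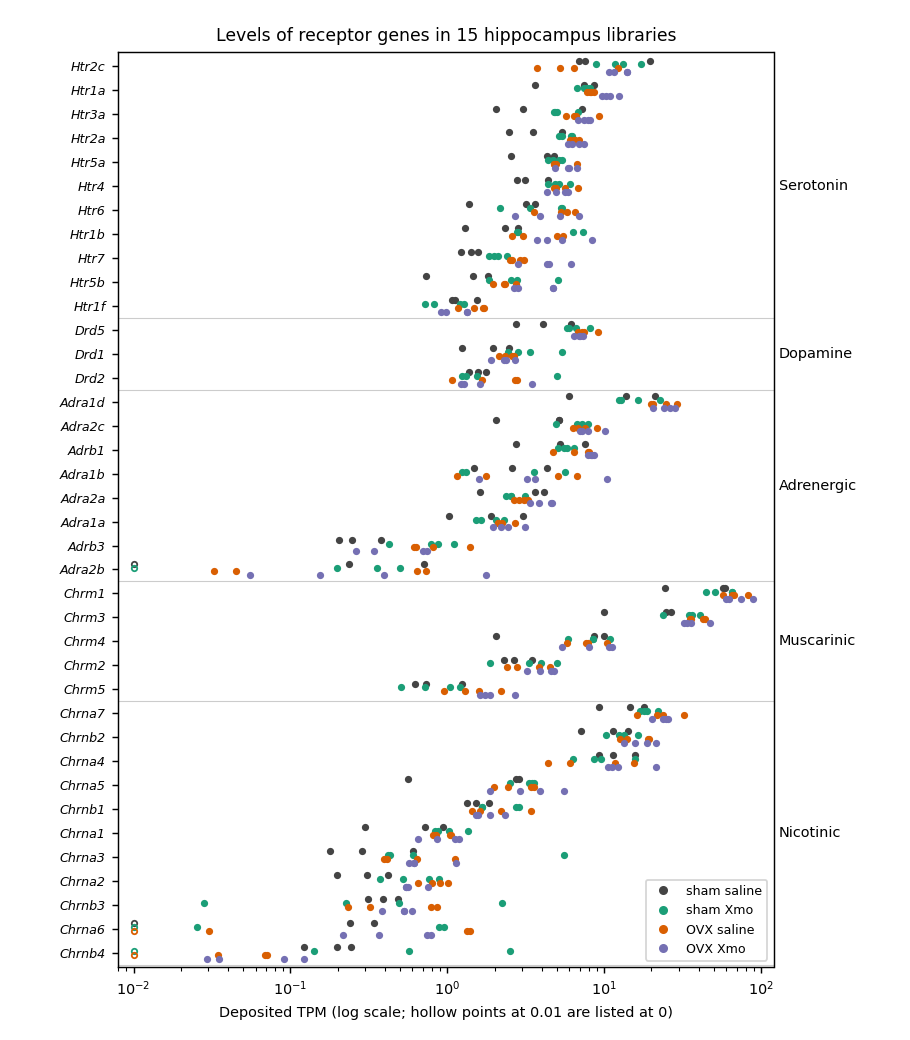
Deposited level of tested receptor genes in every library (TPM, log axis), with genes grouped by receptor family and points coloured by group; hollow points mark libraries listed at 0. Chrm1 and Chrm3 lie highest, with means of 61.5 and 33.5 TPM, and the widest scatter is in low genes such as Chrnb4 and Adra2b.

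Levels of single genes between libraries were steadiest for 9 of the 39 genes, whose highest CPM was less than 2 times the lowest: Adrb1, Chrm1, Chrna7, Chrnb2, Drd5, Htr1a, Htr2a, Htr4 and Htr5a. In another 19 genes that ratio was 2 to 5, in 8 it was over 5, and 3 genes had a library at 0. Among all genes tested, 47.8% had a ratio under 2 and 11.8% one over 5. The widely varying genes included Adra1b, Chrna2, Chrna3, Chrna4, Chrna5, Chrnb3 and Htr2c. Sham saline 2, the library with the highest mitochondrial share, held the lowest value of 13 of the 39 genes, a count given without the share over all genes. The part of the mitochondrial share in those values was not tested.

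Some of this variation followed marker genes of tissue next to the hippocampus. Each tested gene was correlated across the 15 libraries with the mean log2 CPM of 5 marker lists, giving 195 pairs, and 16 pairs had an adjusted p under 0.05 (Pearson, permutation test, Benjamini-Hochberg). The permutations moved libraries freely between groups, so differences between groups enter these values. With group means subtracted first, 22 pairs passed. The thalamus and habenula list held 7 of the 16 pairs, all positive. Adra1b, the Gq-coupled alpha 1B receptor, had r = 0.92 (permutation p = 1e-05, the smallest the permutations can give, adjusted p = 0.00195) and Spearman rho = 0.91 (permutation p = 4e-05, adjusted p = 0.00585). Its level ran from 1.98 CPM in sham Xmo 4, where the list summed to 194 CPM, to 15.8 CPM in OVX Xmo 2, where the list summed to 1103 CPM. Without the 2 libraries farthest from the list's median, sham Xmo 2 and OVX Xmo 2, r was 0.91.

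Drd2, the Gi-coupled D2 receptor, had r = 0.87 with the same list (permutation p = 3e-05, adjusted p = 0.00292) and rho = 0.86 (permutation p = 9e-05, adjusted p = 0.00585), or r = 0.79 without those 2 libraries (permutation adjusted p = 0.0854). The Gi-coupled receptor Adra2b had r = 0.85 (permutation p = 0.00011, adjusted p = 0.00715) and rho = 0.87 (permutation p = 6e-05, adjusted p = 0.00585), and r stayed at 0.85 without them. These pairs share libraries, depth and scaling. In bulk tissue, a higher number of cells of a type and more RNA per cell cannot be told apart. The remaining pairs with that list were Chrm2 (r = 0.77), Chrna6 (r = 0.76), Chrna3 (r = 0.66) and Chrnb3 (r = 0.65). Adra2b was at 0 in 2 libraries and Chrna6 in 3, and both lay near or under the level of 3 counts in others. Of the 7 pairs, 2 also passed without sham Xmo 2 and OVX Xmo 2, those of Adra1b and Adra2b. For Chrna3 the relation rested on the 2 outlying libraries, since r was 0.47 without them (unadjusted permutation p = 0.104).

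**Figure D2:**
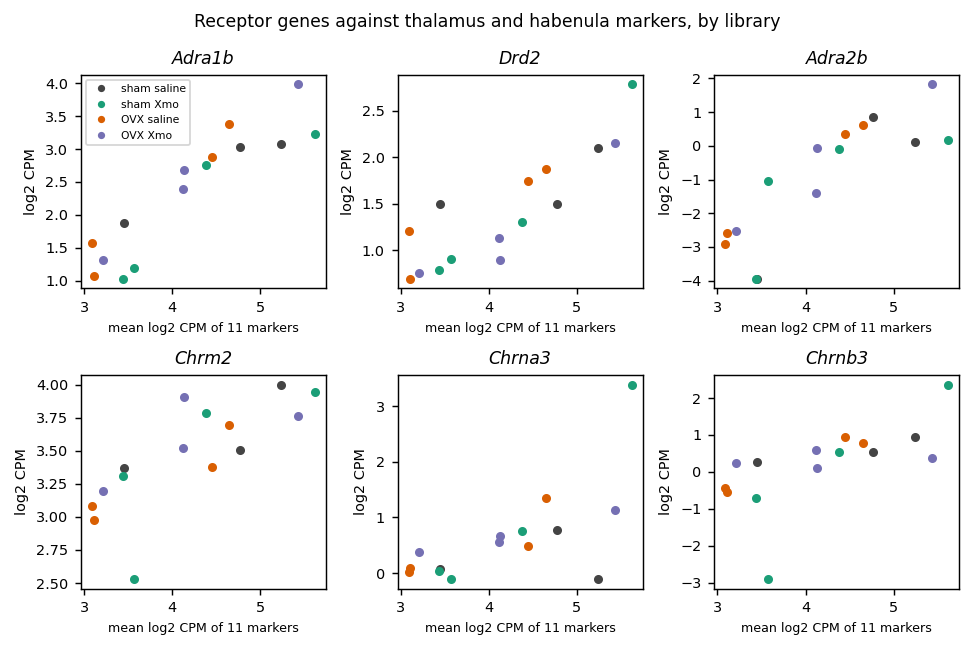
Level of 6 receptor genes (log2 CPM) against the mean level of the thalamus and habenula marker genes (log2 CPM) in the 15 libraries, coloured by group. Adra1b, Drd2 and Adra2b increase along the marker level (r = 0.92, 0.87 and 0.85), whereas for Chrna3 the library sham Xmo 2, at 10.4 CPM, lies far above the rest.

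The other lists gave fewer pairs. With striatal markers, Chrnb4 had r = 0.86 (permutation p = 0.00015, adjusted p = 0.00731) and rho = 0.76 (permutation p = 0.00159, adjusted p = 0.0388). Chrnb4 was at 0 in 2 libraries and near the level of 3 counts in others, where its differences are not detectable. Its r was 0.74 without sham Xmo 2 (permutation adjusted p = 0.0403) and 0.65 without sham saline 2 and sham Xmo 2 (permutation adjusted p = 0.204), so the pair did not pass without both. Drd1, the Gs-coupled D1 receptor, had r = 0.84 (permutation p = 0.00314, adjusted p = 0.0408) but rho = 0.37 (permutation p = 0.173, adjusted p = 0.516), and r was 0.53 without sham saline 2 and sham Xmo 2. Adra1d, next in size, had r = -0.69 and rho = -0.46 (permutation p = 0.00525 and 0.0887, adjusted p = 0.0593 and 0.375), and r was -0.22 without the same libraries.

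With neocortical markers, Adra2a had r = 0.75 (permutation p = 0.00168, adjusted p = 0.0281) and rho = 0.63 (permutation p = 0.013, adjusted p = 0.151), and r was 0.43 without sham saline 1 and sham saline 3, on which the relation rests. Chrm4 had r = 0.72 and rho = 0.77 (permutation p = 0.00289 and 0.0014, adjusted p = 0.0403 and 0.0388), and without the same 2 libraries r was 0.63 and no longer passed (permutation adjusted p = 0.244). Htr4, the Gs-coupled 5-HT4 receptor, ran against that list, with r = -0.73 and rho = -0.77 (permutation p = 0.00173 and 0.00126, adjusted p = 0.0281 and 0.0388) and r = -0.9 without the same 2 libraries. The sign flipped on the TPM scale, where r was 0.47.

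With interneuron markers 4 genes passed by Pearson's r. Htr1a had r = 0.8 and rho = 0.68 (permutation p = 0.00054 and 0.00626, adjusted p = 0.0175 and 0.102), and Htr1b, the 5-HT1B receptor of axon terminals, had r = 0.78 and rho = 0.74 (permutation p = 0.00043 and 0.00259, adjusted p = 0.0168 and 0.0505). Htr5a, the 5-HT5A receptor, had r = 0.77 and rho = 0.7 (permutation p = 0.00096 and 0.00462, adjusted p = 0.0234 and 0.0819). Chrm4 was the other (r = 0.71, rho = 0.66, permutation adjusted p = 0.0343 and 0.133). Without sham saline 3 and OVX Xmo 3 the r of Htr1a, Htr1b, Htr5a and Chrm4 were 0.71, 0.72, 0.72 and 0.57, and 0 of the 4 pairs passed (permutation adjusted p = 0.112 to 0.335). None of the 4 passed by rho. The other tested Gi-coupled serotonin receptors, Htr1f and Htr5b, had r = 0.2 and 0.37 (permutation adjusted p = 0.805 and 0.503). With choroid plexus markers 0 of 39 genes passed by Pearson's r and 2 had an unadjusted permutation p under 0.05. The largest r was that of Chrnb1, a subunit of the muscle receptor (r = 0.61, rho = 0.75, permutation adjusted p = 0.119 and 0.039). Htr2c followed (r = 0.55, rho = 0.48, permutation adjusted p = 0.2 and 0.371), and then Drd1 (r = 0.49, rho = 0.42, permutation adjusted p = 0.279 and 0.422).

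Library sham Xmo 2 held the highest level of 6 receptor genes, and sham saline 3 and OVX Xmo 2 each held that of 5. The share over all genes is not given beside these counts. Chrna3 and Chrnb4, subunits of the ganglionic and habenular nicotinic receptor, had 10.4 and 5.06 CPM in sham Xmo 2, against at most 2.47 and 1.11 CPM in the other 14 libraries. Both lie in a gene cluster on chromosome 9 with Chrna5, at chr9:55010111-55026562 and chr9:55028154-55048779 on the minus strand, separated by 1591 bases (GRCm38.p6). Chrna5 itself (chr9:54980880-55007779, plus strand), 2331 bases from Chrna3, was within the range of the others at 3.41 CPM. Chrnb3, an accessory nicotinic subunit, had 5.09 CPM against at most 1.87 CPM elsewhere, whereas its neighbour Chrna6, 3481 bases away, had 1.41 CPM and was higher in 3 other libraries. Drd1 had 9.37 CPM against at most 5.96 CPM, Drd2 had 6.84 CPM against at most 4.38 CPM, and the Gi-coupled receptor Htr5b had 5.36 CPM against at most 4.72 CPM. In the same library the habenula genes Gpr151, Tac2 and Pou4f1 had 18.3, 22.5 and 4.7 CPM and the striatal gene Adora2a had 5.16 CPM, each the highest of the 15 libraries. Not every gene of these lists peaked there. The striatal gene Pde10a was at 35.4 CPM, against 111 CPM in OVX Xmo 4. The summed striatal list was at 249 CPM, against 243 CPM in sham saline 2. The summed thalamus and habenula list was at 751 CPM, against 1103 CPM in OVX Xmo 2. The part of these marker genes in the receptor values was not tested.

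Only Htr2c, Adra2a and Htr7 passed edgeR's test between groups in any comparison, and the RefSeq sequence in front of each gene is shown so that the genes can be told apart by what lies at their start. The windows come from the RefSeq table for GRCm38.p6, which had an entry for 37 of the 49 genes, and run 5′ to 3′ on the gene's own strand from 250 bases before the RefSeq start to the base before the deposited gene start. Capitals mark a match to a searched motif on either strand.
Adra2a, chr19:54045009-54045181, plus strand: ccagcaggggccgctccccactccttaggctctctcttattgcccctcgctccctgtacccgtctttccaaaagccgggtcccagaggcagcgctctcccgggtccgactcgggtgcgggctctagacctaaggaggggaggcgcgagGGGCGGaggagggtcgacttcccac
Htr2c, chrX:146962263-146962512, plus strand: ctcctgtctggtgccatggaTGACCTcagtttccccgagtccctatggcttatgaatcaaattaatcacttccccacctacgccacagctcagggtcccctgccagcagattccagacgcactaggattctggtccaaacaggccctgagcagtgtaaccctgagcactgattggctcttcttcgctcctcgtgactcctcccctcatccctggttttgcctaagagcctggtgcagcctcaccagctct
Htr7, chr19:36057508-36057610, minus strand: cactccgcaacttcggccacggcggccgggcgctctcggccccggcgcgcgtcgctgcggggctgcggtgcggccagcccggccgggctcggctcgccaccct
The motifs searched were the Sp1 GC box GGGCGG, the cyclic AMP element TGACGTCA and its core TGACG, the estrogen response element (GGTCA and TGACC with 3 bases between them) and its single arm AGGTCA, and the TATA box TATAAA. The Adra2a window, 173 bases with 67.6% G and C, held 1 GC box, a match found in 19.9% of 32851 RefSeq windows of that length. The Htr2c window, 250 bases with 55.6% G and C, held 1 estrogen element arm on the reverse strand (TGACCT as printed), found in 14.0% of windows of its length. No searched motif was in the 103 bases before Htr7, which had 82.5% G and C against a median of 50.5% for windows of that length. All windows compared begin 250 bases before the RefSeq start, but those of Adra2a, Htr2c and Htr7 also end right before the deposited gene start. The positions are therefore not fully alike. Cores, arms and full elements can overlap, and a match describes these letters only.

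Ovariectomy was compared under saline. Sham saline, with mitochondrial shares of 20.2% to 35.4%, enters every receptor call by edgeR below. In the comparisons of 2 groups that used it, 18.4% to 24.7% of all genes had an unadjusted p under 0.05 (edgeR), against 4.18% and 10.2% in those without it. The part of the mitochondrial share in the receptor calls was not tested. Of the 39 genes tested, 2 fell and 0 rose in OVX saline against sham saline, where 6.24% of all 19969 genes tested passed, 2.59% as lower and 3.65% as higher (edgeR quasi-likelihood test, Benjamini-Hochberg adjusted p under 0.05). Htr2c, the Gq-coupled 5-HT2C receptor of neurons and choroid plexus, had 55.6, 32.9 and 27.0 CPM in the sham saline libraries. Its level in the OVX saline libraries was 9.62, 15.7, 11.9 and 26.6 CPM. Every OVX saline library lay below every sham saline library, although the nearest values of the groups were almost level. The group means were 38.5 ± 15.1 and 16.0 ± 7.54 CPM (SD, n = 3 and 4), a log2 fold change of -1.28 (SE 0.31, edgeR adjusted p = 0.0294). Summed choroid plexus markers, all 12 of them detected in every library, ran from 214 to 1286 CPM in sham saline and from 84.6 to 479 CPM in OVX saline, and their part in the result was not tested. The Htr2c call did not hold without any one of the sham saline libraries or of OVX saline 1, 2 and 3 (edgeR adjusted p = 0.051 to 0.0954).

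Adra2a, the Gi-coupled alpha 2A receptor that also serves as an autoreceptor on noradrenaline axons, had 9.6, 6.53 and 10.8 CPM in sham saline. In OVX saline it had 5.74, 5.81, 6.31 and 5.57 CPM. The groups did not overlap, with sham saline 2 close to the OVX saline libraries. The means were 8.99 ± 2.22 and 5.86 ± 0.32 CPM (SD, n = 3 and 4), a log2 fold change of -0.62 (SE 0.16, edgeR adjusted p = 0.0379). Summed neocortical markers ran from 320 to 544 CPM in sham saline and from 271 to 373 CPM in OVX saline, and their part in the result was not tested. The Adra2a call did not hold without sham saline 1, sham saline 3 or any one of the OVX saline libraries (edgeR adjusted p = 0.0636 to 0.148).

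The remaining 37 genes did not pass in that comparison. The smallest p among them was that of Chrnb4 (log2 fold change -2.62, SE 1.24, edgeR adjusted p = 0.206), a low gene with 0.279 to 0.961 CPM in sham saline and 0 to 0.15 CPM in OVX saline, near the level of 3 counts. In sham saline Chrna4 was at 29.8, 29.5 and 30.9 CPM, and in OVX saline at 11.8, 3.33, 25.5 and 18.3 CPM, with no overlap but a wide spread after ovariectomy (log2 fold change -1.03, SE 0.52, edgeR adjusted p = 0.243). Adrb3 also had no overlap and went the other way, with 0.575 to 0.664 CPM in sham saline and 0.951 to 1.1 CPM in OVX saline (log2 fold change 0.72, SE 0.35, edgeR adjusted p = 0.221). Groups without overlap occurred for 5 of the 39 genes (12.8%) and for 24.5% of all genes tested. An unadjusted p under 0.05 was found for 2 of the 39 genes and for 24.7% of all genes, and the log2 fold change was above 0 for 18 of the 39 and for 50.5% of all. The median log2 fold change was -0.03 over the 39 genes and 0.01 over all genes. By role, the 3 beta and 3 alpha 1 adrenergic receptors, the 5 muscarinic receptors, the 3 dopamine receptors and the 11 nicotinic subunits gave 0 calls, by edgeR and by DESeq2, and 0 of them had an unadjusted p under 0.05.

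Xmo was compared with saline in mice without ovaries, with the OVX saline libraries shared with the comparison above. In OVX Xmo against OVX saline, 0 of the 39 genes and 0% of all genes passed (edgeR), 6 of the 39 genes had an unadjusted p under 0.05 against 4.18% of all genes, and DESeq2 called 0 of the 39. The 6 genes were Htr7, Htr2c, Adra2a, Htr1b, Htr1a and Htr5b, and all had the higher mean with Xmo. Htr7, the Gs-coupled 5-HT7 receptor, had 4.48, 3.74, 4.36 and 3.94 CPM in OVX saline and 6.69, 8.96, 7.03 and 5.0 CPM in OVX Xmo. These groups did not overlap, yet the adjusted p was 0.998 (edgeR, log2 fold change 0.74, SE 0.18).

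Htr2c had 26.1, 32.4, 24.2 and 36.7 CPM in OVX Xmo, so that OVX saline 4, at 26.6 CPM, lay within their range (log2 fold change 0.91, SE 0.29, edgeR adjusted p = 0.998). Adra2a had 7.23, 8.73, 9.03 and 7.35 CPM in OVX Xmo, all above the OVX saline libraries (log2 fold change 0.46, SE 0.15, edgeR adjusted p = 0.998). Htr1a had 20.4, 20.4, 18.5 and 16.3 CPM in OVX saline and 24, 21.3, 23.6 and 31.3 CPM in OVX Xmo, also without overlap (log2 fold change 0.40, SE 0.16, edgeR adjusted p = 0.998). Groups without overlap occurred for 3 of 39 genes (7.69%) and for 3.11% of all genes. The median log2 fold change was 0.11 over the 39 genes, and 0 over all genes. The log2 fold change was above 0 for 26 of the 39 and for 50.9% of all genes. Summed interneuron markers ran from 734 to 854 CPM in OVX saline and from 736 to 990 CPM in OVX Xmo, and their part in these values was not tested.

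**Figure D3:**
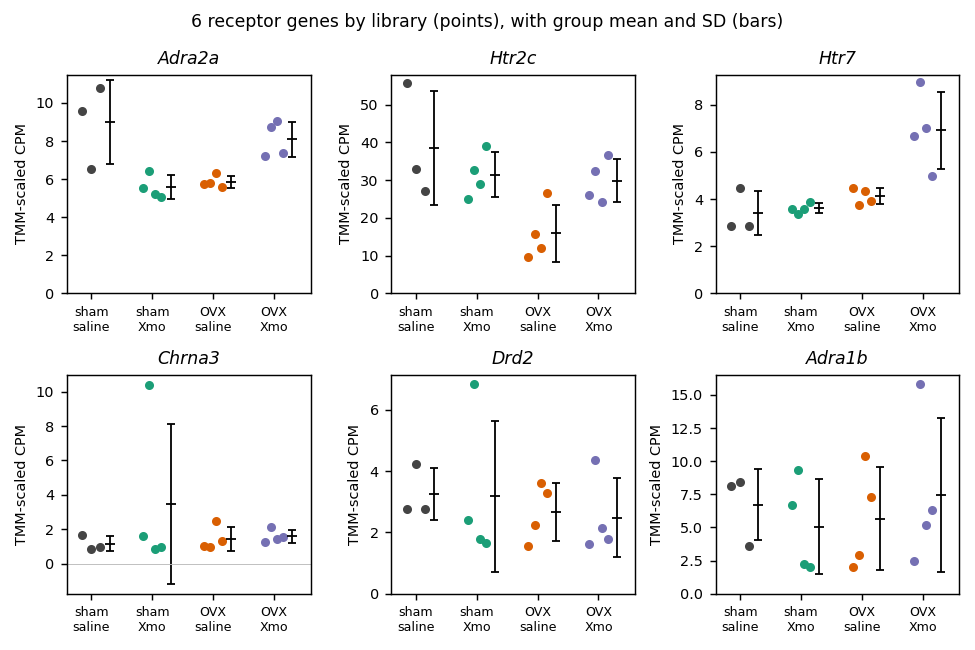
Level of Adra2a, Htr2c, Htr7, Chrna3, Drd2 and Adra1b in each library (CPM, linear axis), by group, with the group mean and SD drawn as a bar. Htr7 is highest in OVX Xmo (5.0 to 8.96 CPM), Htr2c is lowest in OVX saline (9.62 to 26.6 CPM), and sham Xmo 2 stands out for Chrna3 and Drd2.

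Xmo in sham-operated mice was compared with the same sham saline libraries. There 1 of the 39 genes fell and 0 rose in sham Xmo against sham saline, where 1.51% of all genes passed, 0.791% as lower and 0.721% as higher. Adra2a had 5.55, 6.45, 5.23 and 5.07 CPM in sham Xmo, all below the lowest sham saline library, sham Xmo 2 only slightly. Its mean of 5.58 ± 0.616 CPM (SD, n = 4) gave a log2 fold change of -0.69 (SE 0.16, edgeR adjusted p = 0.0481). Summed neocortical markers ran from 298 to 378 CPM in sham Xmo against 320 to 544 CPM in sham saline. The call held without sham saline 2 and was lost without any other single library of the pair of groups (edgeR adjusted p = 0.0514 to 0.201), sham Xmo 2 included (log2 fold change -0.79, edgeR adjusted p = 0.0576).

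Next by p were Htr1f, a Gi-coupled serotonin receptor (log2 fold change -0.83, SE 0.28, edgeR adjusted p = 0.127), and Adra1a, a Gq-coupled alpha 1 receptor (log2 fold change -0.58, SE 0.24, edgeR adjusted p = 0.205). Neither passed. Htr2c, at 25.1 to 39.1 CPM in sham Xmo, overlapped sham saline (log2 fold change -0.29, edgeR adjusted p = 0.651), in libraries whose summed choroid plexus markers ran from 131 to 8581 CPM. No overlap was seen for 3 of 39 genes, against 14.2% of all genes, and an unadjusted p under 0.05 for 5 of 39, against 18.4%. The log2 fold change was above 0 for 17 of the 39 genes and for 53.4% of all, and the median log2 fold change was -0.05 over the 39 genes and 0.03 over all genes.

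OVX Xmo was also set against sham saline, which serves here as the untreated state with ovaries and is shared with both comparisons above. Of the 39 genes 1 rose and 0 fell, where 1.19% of all genes passed, 0.746% as higher and 0.441% as lower. Htr7 had 2.86, 4.47 and 2.87 CPM in sham saline, and every OVX Xmo library lay above them. The means were 3.4 ± 0.923 and 6.92 ± 1.62 CPM (SD, n = 3 and 4), a log2 fold change of 1.03 (SE 0.2, edgeR adjusted p = 0.0335). Without sham saline 1, sham saline 3, OVX Xmo 1, OVX Xmo 2 or OVX Xmo 3 the call was lost (edgeR adjusted p = 0.053 to 0.108).

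Htr5b, a Gi-coupled serotonin receptor, had levels of 2.17, 1.49 and 2.22 CPM (sham saline) and 4.53, 2.58, 4.72 and 3.1 CPM (OVX Xmo) (log2 fold change 0.92, SE 0.31, edgeR adjusted p = 0.13). The groups did not overlap, but the test was not passed. Htr1f differed the other way (log2 fold change -0.74, SE 0.28, edgeR adjusted p = 0.167). Adra2a and Htr2c, the genes lower in OVX saline, had log2 fold changes of -0.16 and -0.37 here (edgeR adjusted p = 0.649 and 0.552). A p that misses the threshold does not show that these levels were alike. An unadjusted p under 0.05 was found for 4 of the 39 genes and for 18.9% of all genes, and no overlap for 5 of 39 (12.8%) and for 14.9% of all. The log2 fold change was above 0 for 26 of the 39 genes and for 51.4% of all.

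Ovariectomy under Xmo gave no receptor call. In OVX Xmo against sham Xmo, 0 of the 39 genes passed by edgeR, where 0.01% of all genes did (0.00501% as higher and 0.00501% as lower), 9 had an unadjusted p under 0.05 against 10.2% of all genes, and DESeq2 called 1, Htr7. The share of all genes called by DESeq2 is not given, but the count over all genes, 2 by edgeR, ran from 0 to 75 under the alternatives. The 9 genes include Chrnb4 and Drd1, both highest in sham Xmo 2 (5.06 and 9.37 CPM). The count without that library is not given. Htr7 had 3.59, 3.38, 3.57 and 3.89 CPM in sham Xmo, all below OVX Xmo (log2 fold change 0.94, SE 0.18, edgeR adjusted p = 0.212, DESeq2 adjusted p = 0.00345). Chrm5, the Gq-coupled M5 receptor, had 0.508, 0.925, 0.624 and 1.01 CPM in sham Xmo and 1.51, 1.29, 2.22 and 1.6 CPM in OVX Xmo (log2 fold change 1.08, SE 0.29, edgeR adjusted p = 0.315). Adra2a came next (log2 fold change 0.53, SE 0.15, edgeR adjusted p = 0.315). Htr7, Chrm5 and Adra2a were among the 5 genes without overlap, a count to be read against 5.88% of all genes. The median log2 fold change was 0.16 over the 39 genes and -0.02 over all genes, and it was above 0 for 25 of the 39 and for 47.2% of all.

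The difference between the Xmo effects in OVX and in sham mice was tested as an interaction. It passed for 1 of the 39 genes, Adra2a, against 0.416% of all genes, 0.27% as higher and 0.145% as lower. An unadjusted p under 0.05 was found for 6 of the 39 genes and for 17.4% of all, and a value above 0 for 23 of the 39 and for 47.7% of all. The mean of Adra2a was lower with Xmo in sham mice (8.99 against 5.58 CPM) and higher with Xmo in OVX mice (5.86 against 8.08 CPM), an interaction of 1.15 on the log2 scale (SE 0.22, edgeR adjusted p = 0.041). Htr1a had an interaction of 0.69 (SE 0.23, edgeR adjusted p = 0.146) and Htr2c one of 1.2 (SE 0.42, edgeR adjusted p = 0.165), neither of which passed. The median interaction was 0.27 over the 39 genes and -0.02 over all genes. Without sham Xmo 2 the Adra2a interaction was 1.25 (edgeR adjusted p = 0.0383). It no longer passed without sham saline 1 or 3, sham Xmo 3 or 4, any one of the OVX saline libraries, or OVX Xmo 2, 3 or 4 (edgeR adjusted p = 0.0512 to 0.126).

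**Figure D4:**
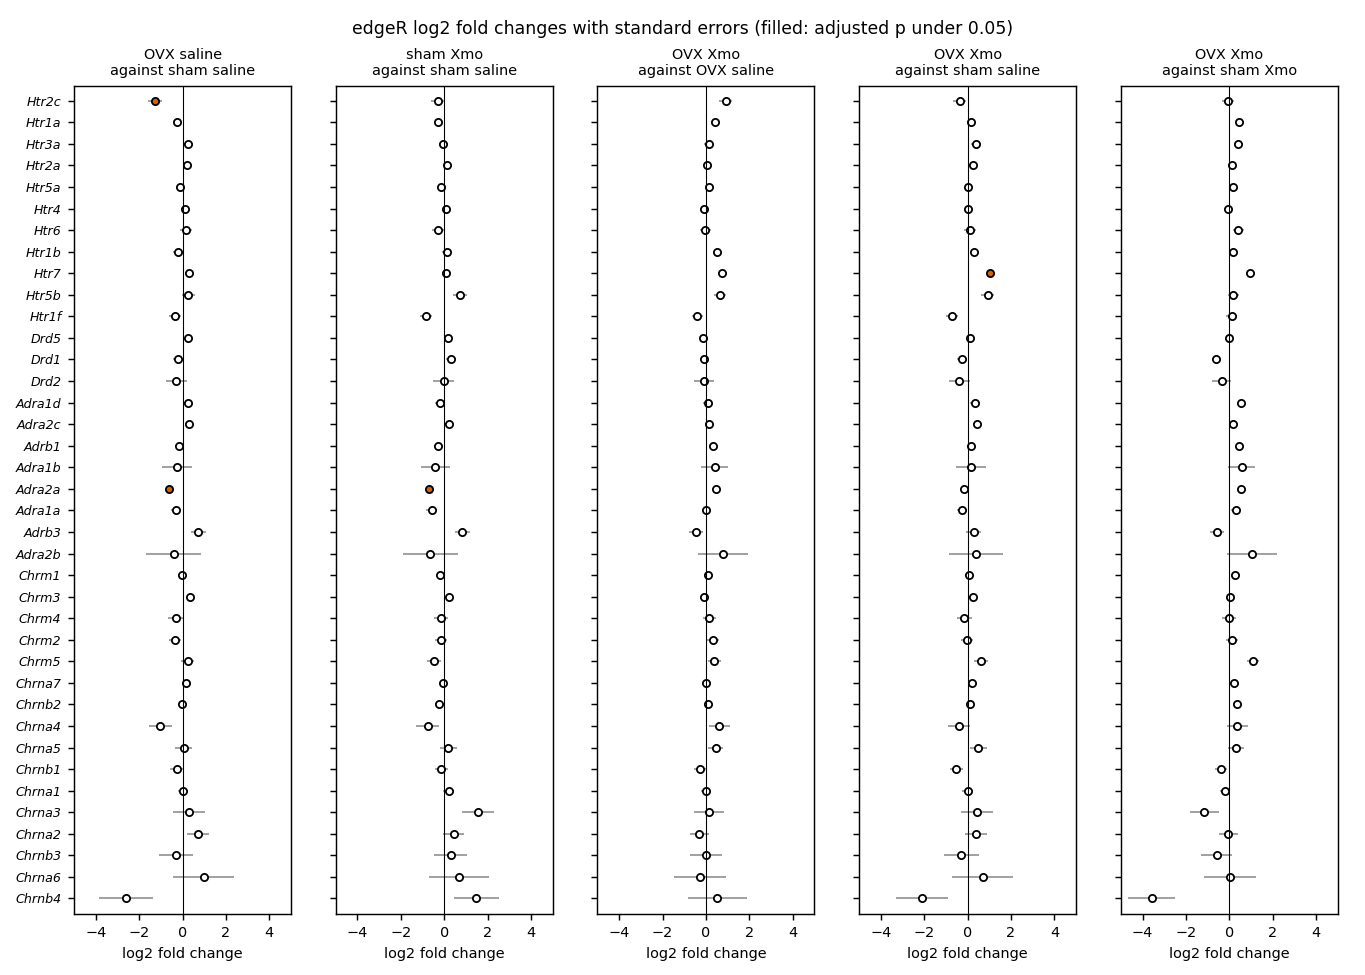
Log2 fold change with its SE for tested receptor genes in the 5 comparisons of 2 groups, with filled points for an edgeR adjusted p under 0.05. Filled points are few: Htr2c and Adra2a for OVX saline against sham saline, Adra2a for sham Xmo against sham saline, and Htr7 for OVX Xmo against sham saline.

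Across the 4 groups, 17 of the 39 genes had their highest mean CPM in OVX Xmo (43.6%), against 20.4% of all genes tested. Another 10 had it in sham saline (25.6%, against 32.4%), 6 in sham Xmo (15.4%, against 23.6%) and 6 in OVX saline (15.4%, against 23.6%). The lowest mean was in sham Xmo for 15 genes (38.5%, against 19.0%). These counts describe the order of the means and have no test of their own.

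The partners of these receptors were read from 6 lists with 92 tested genes: transmitter synthesis and clearance, G protein subunits, cyclic AMP signalling, phospholipase C signalling, receptor kinases with arrestins and RGS proteins, and nicotinic receptor chaperones. In OVX saline against sham saline 1 rose and 4 fell (5.43%, against 6.24% of all genes). Gnao1, the main G protein alpha subunit of brain Gi-type signalling, fell from 598 ± 33.1 to 472 ± 24.2 CPM (log2 fold change -0.34). Gnai2, another Gi alpha subunit, fell from 130 ± 3.87 to 95.6 ± 10.2 CPM (log2 fold change -0.44), and Gnb2, a beta subunit, rose from 80.5 ± 14.1 to 115.0 ± 4.65 CPM (log2 fold change 0.51). Prkaca, a catalytic subunit of protein kinase A, fell from 117.0 ± 22 to 84.5 ± 8.18 CPM (log2 fold change -0.47, edgeR adjusted p = 0.028), and Dgki, a diacylglycerol kinase, fell from 44.4 ± 3.2 to 32.2 ± 0.445 CPM. Unlike the receptor calls, the partner calls here and below were not checked with single libraries left out.

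In sham Xmo against sham saline 0 rose and 4 fell (4.35%, against 1.51% of all genes). Gnao1 was at 438 ± 42.2 CPM, Gnai2 at 93.7 ± 6.15 CPM and Prkaca at 78.1 ± 4.08 CPM. For Prkaca the interaction also passed (0.79 on the log2 scale, edgeR adjusted p = 0.041), the only one of the 92 genes to do so. In the 3 comparisons of OVX Xmo with another group 0 of the 92 genes passed by edgeR. An unadjusted p under 0.05 was found for 2 of the 92 genes against OVX saline (2.17%, with 4.18% of all genes), for 17 against sham saline (18.5%, with 18.9% of all) and for 21 against sham Xmo (22.8%, with 10.2% of all). DESeq2 called 0, 6 and 0 of the 92, and its share over all genes is not given. Over all genes the edgeR counts of 0, 237 and 2 reached at most 2, 1126 and 75 under the alternatives. The mitochondrial share of counts was 20.2% to 35.4% in sham saline and 12.4% to 20.6% in the other groups, and its part in these results was not tested.

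The list for transmitter synthesis, transport and breakdown had 16 tested genes of 22, and 0 passed in any comparison by edgeR. Per comparison 0 to 3 of the 16 had an unadjusted p under 0.05. A count of 3 was found in OVX saline against sham saline (24.7% of all genes) and in OVX Xmo against sham Xmo (10.2% of all genes). DESeq2 called 1 gene in OVX saline against sham saline and 1, Tph2, as higher in sham Xmo against sham saline. The share of all genes called by DESeq2 is not given beside these counts. Th, for catecholamine synthesis, had 0.0961 to 1.12 CPM, Tph2, for serotonin synthesis in neurons, had 0.384 to 1.78 CPM, and Chat, for acetylcholine synthesis, had 0 to 1.56 CPM with its highest value in sham Xmo 2. Ddc, which makes dopamine and serotonin from their precursors, had 2.91 to 9.01 CPM, and Slc18a2, the vesicular monoamine transporter, had 4.45 to 10.1 CPM. Of the degrading enzymes, Maoa had 29.8 to 42.9 CPM and Ache 26.2 to 51.9 CPM. The 16 tested kinases, arrestins and RGS proteins and the 8 nicotinic chaperones and partners also gave 0 calls in every comparison by edgeR. An unadjusted p under 0.05 was found for 0 to 3 genes of each list. For the 8 chaperones and partners the 3 were in OVX Xmo against sham Xmo (10.2% of all genes). For the 16 kinases, arrestins and RGS proteins they were in OVX saline against sham saline (24.7% of all genes). DESeq2 called at most 2 genes of either list in a comparison, again with no DESeq2 share over all genes beside them.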

How the data were processed

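Hippocampal mRNA libraries of 4 groups were analysed from the table of gene counts and TPM values that the authors deposited; small RNA libraries were not analysed here. The submitters' processing notes name build GRCm38.p6 and the tools StringTie 1.3.3b, Bowtie2 2.3.2, Trimmomatic 0.36 and FastQC 0.11.2. The sources used here do not say which of them gave the counts or whether counting used strand. The deposited counts are raw counts per gene, and the deposited TPM values are scaled by the authors for gene length and library total. A further 12 per-sample columns matched no sample and were not used.

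Counts were tested over the whole table with edgeR 4.0.16 (R 4.3.3): low genes removed by group, leaving 19969, TMM scaling, 1 quasi-likelihood fit of the 4 groups with 11 residual degrees of freedom, and Benjamini-Hochberg adjustment over all genes with a threshold of 0.05. SE is the log2 fold change divided by the square root of F. CPM used TMM-scaled totals, with a prior count of 2 for log2 CPM, and correlations used 100000 permutations. The fit was tested on simulated data. No libraries of the same group agreed within sampling noise (lowest chi-square per degree of freedom 21), and libraries of different groups were not compared in this way.

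The rule for the receptor genes uses symbols only, but these genes and the lists were chosen as a subject with earlier results of these data known. Named were the genes past the test, otherwise the 3 smallest p in a comparison, the 12 highest by TPM, the untested genes, up to 4 partners per list past the test, and the 3 largest correlations per marker list. Some further genes were named outside this rule, such as Chrna4 and Adrb3 for groups without overlap. Alternatives were DESeq2 1.42.0, other size factors, other filters, no mitochondrial genes, 2 groups only, a replicate block and leaving out each library. A few genes of the lists are not reported here.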

Additional observations from a re-analysis of the deposited data

Results flagged for a closer look

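Of 117 gene and group combinations checked for a library far from the others of its group, 5 stood out by Dixon's criterion, and chance gives about 1 in 20. In sham Xmo 2, Chrna3 was at 10.4 CPM against 0.866 to 1.63 CPM in the other sham Xmo libraries, and Drd2 was at 6.84 CPM against 1.66 to 2.4 CPM. Chrnb1, a muscle-type nicotinic subunit, was at 3.21 CPM in OVX saline 4 against 1.72 to 1.87 CPM, and at 2.4 CPM in OVX Xmo 3 against 1.57 to 1.62 CPM. Those 2 libraries also held the highest summed choroid plexus markers of their groups, at 479 and 1819 CPM. In sham Xmo, too, both were highest in the same library, sham Xmo 4 (3.09 and 8581 CPM). In sham saline they were not. There Chrnb1 had 3.75 CPM in sham saline 2, with markers at 476 CPM, and 2.03 CPM in sham saline 1, with markers at 1286 CPM. The part of these markers in the Chrnb1 values was not tested. Htr4 was at 15.2 CPM in sham Xmo 3 against 12.3 to 12.5 CPM. The Xmo difference of Adra2a had an interaction of 1.15 on the log2 scale between OVX and sham mice (edgeR adjusted p = 0.041). That call was lost in 13 of 21 alternatives.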

How the results depend on the processing

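Of 276 values recomputed for the 18 named gene results, 0 changed direction, 46 no longer passed and 1 newly passed, the Htr7 difference of OVX Xmo against sham Xmo with DESeq2. The count of receptor genes past the test in OVX saline against sham saline was 2. It was 1 with a replicate block (Htr2c), 1 with no filter on low counts (Htr2c) and 0 in a fit of only the 2 groups, and from 0 to 1 when 1 library was left out. For sham Xmo against sham saline the count of 1 became 0 with the block, with no filter and with only the 2 groups, and 0 to 1 with 1 library left out. The same held for OVX Xmo against sham saline. The interaction count of 1 became 0 with no filter and with the block, and 0 to 1 with 1 library left out. For OVX Xmo against sham Xmo the count of 0 became 1 with DESeq2, and for OVX Xmo against OVX saline it was 0 in all 15 alternatives. The replicate numbers do not pair the libraries: same-numbered libraries had correlated deviations of -0.21 to 0.19 over 21 pairs, and 2 of 15 libraries matched their own number best. The 16 gene and marker list pairs became 43 on the TPM scale, 22 with group means subtracted and 3 without the 2 farthest libraries. In alternatives chosen after seeing the data, they became 9 by Spearman's rho and 14 without sham Xmo 2. The summed receptor level of 275 TPM became 407 TPM without mitochondrial genes. Over all genes the count in OVX saline against sham saline ran from 80 to 2341 around 1246. It ran from 6 to 1154 around 302 for sham Xmo against sham saline and from 2 to 1126 around 237 for OVX Xmo against sham saline. It ran from 6 to 852 around 83 for the interaction and from 0 to 75 around 2 for OVX Xmo against sham Xmo. The cause of these changes was not tested. Differences near or under the level of 3 counts, as for Chrnb4 and Chrna6, are not detectable at this depth.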
